A study of Rattus norvegicus with 24 samples.

Results

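The livers of 5 female Sprague-Dawley rats that ate a high-fat diet and whose grandfather had also been given one were compared with the livers of 7 females with neither exposure. These 12 arrays were chosen by sample title, without reference to any measured value, and make up 12 of the 24 arrays of the study. The other 12 hold the single exposures, 6 from females that ate the high-fat diet with a chow-fed grandfather and 6 from chow-fed females whose grandfather had the high-fat diet. Below, these groups are called doubly exposed, unexposed, own diet only and grandfather's diet only, and arrays carry the numbers of their titles. Every female was fed as an adult for 12 weeks, on control chow or on a diet with 42/45% of its energy from fat, and RNA was read on an Affymetrix rat gene array.

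The question was what both exposures did together, and whether their joint change was the sum of what each did alone. Dietary lipid is delivered to the liver, and hepatocytes answer to their own sterol content: when sterol is scarce, SREBP2, a membrane-bound transcription factor, is cleaved and turns on the enzymes of cholesterol synthesis, and when sterol is plentiful it is held back. Fatty acids act through other receptors, among them PPAR alpha, which turns on fat oxidation. A grandfather's diet is thought to act on a granddaughter through the germ line of the generation between, and work on such transmission asks whether it changes her own response to diet.

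All values are log2 signals after quantile normalization of the 24 arrays, and 15687 of 20917 probe sets (groups of probes that read 1 transcript) were bright enough to be tested with limma, with p-values adjusted over all of them by the Benjamini-Hochberg method and a threshold of 0.05. Titles, source and tissue labels say liver, although the growth protocol names a gonadal fat depot. The 15 hepatocyte markers tested averaged 12.8 to 12.9 in every array, and the 7 adipocyte markers 7.22 to 7.57. The adipocyte average is raised by Pck1, which read 11.44 to 12.72. None of either list passed the limma test in the doubly exposed livers. The labels name neither litter nor grandsire, nor do they say that each array is a separate animal, so any kinship is unmodelled. Kin within a group would make p-values smaller than they should be, and kin split between compared groups could make them larger. Arrays 21, 22, 24 and 25 stood apart on the first principal component, which held 15.8% of the variance, at -24.9 to -21.1 against -3.11 to 17.3 for the rest; 2 of them are unexposed, 1 own diet only and 1 doubly exposed. As deposited, the mean of the array medians was 7.83 ± 0.075 (SD, n = 5) in the doubly exposed livers. It was 7.96 in each other group, with an SD of 0.15 in the unexposed, 0.097 in own diet only and 0.07 in grandfather's diet only. Before log2, the medians ran from 102 to 114 in the doubly exposed and from 102 to 128 in the unexposed livers. Because array medians differed, the arrays were normalized before the fit.

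In the doubly exposed livers 145 probe sets rose (0.924% of those tested) and 168 fell (1.07%), together 2.0%. The groups did not overlap for 110 probe sets that were higher in the doubly exposed livers (0.701%) and for 138 that were lower (0.880%). Counting 1 probe set per gene, 128 genes rose (1.0% of 12744) and 145 fell (1.14%). Enzymes of cholesterol synthesis led the falls, and a period gene of the circadian clock, a bile acid-responsive repressor and the transcription factor Tox were among the 12 largest called rises. Because whole liver was read, fewer cells of a type and less RNA per cell cannot be told apart. The balance of rises and falls rests on the scaling: as deposited, 22 rose and 298 fell, so that 6.88% of the calls were rises against 46.3% after normalization, and 188 calls were shared with the same direction. Without arrays 21, 22, 24 and 25, 113 rose and 107 fell, with 148 shared in direction. The count fell to 146, 153 and 203 without array 44, 45 or unexposed array 27, and was 117 with only these 12 arrays fitted.

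Cholesterol synthesis moved as a block. Of the 20 listed enzymes 16 were tested, 14 fell and none rose, and in 12 the doubly exposed and unexposed livers did not overlap. The median over the 16 was -1.10, against 0.01 over all genes tested. The falls ran from the first step of the pathway to the last, and were largest for Idi1 and Sqle. Leaving out arrays 21, 22, 24 and 25 gave 12 falls, without Tm7sf2 and Nsdhl, and the same median of -1.10.

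At the entry, Acat2, which joins acetyl-CoA units, read 8.18, 8.87, 8.58, 7.92 and 8.26 in doubly exposed arrays 24, 44, 45, 46 and 47, and 9.27 at the lowest, 10.06 at the median and 10.71 at the highest in the unexposed livers. Every doubly exposed liver was below every unexposed one, the mean difference being -1.63 ± 0.24 (SE; adjusted p = 0.000805). Pmvk and Mvd, which phosphorylate and decarboxylate mevalonate on the way to isoprenoid units, differed by -0.85 and -1.41. Idi1, which makes the reactive isoprenoid isomer, read 7.94, 8.55, 7.78, 7.69 and 8.07 in the doubly exposed livers against 9.34, 10.35 and 11.07 at the lowest, median and highest of the unexposed. Its groups did not overlap, and the difference of -2.30 ± 0.31 is a 4.93-fold lower signal (adjusted p = 0.000252).

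Further along, Fdft1, which commits isoprenoids to squalene, differed by -0.77. Sqle, the oxygen-using epoxidase of squalene, read 6.85, 8.95, 8.32, 7.78 and 8.71 against 9.75, 10.43 and 11.01. Array 24 was the lowest, the groups stayed apart, and the difference was -2.25 ± 0.35 (adjusted p = 0.000915). Lss, the cyclase that closes the sterol rings, read 9.58, 9.13, 9.69, 9.36 and 9.49 against 10.18, 10.81 and 11.21, a difference of -1.33 ± 0.18 with no overlap (adjusted p = 0.000252). Cyp51, Msmo1 and Hsd17b7, which strip methyl groups from lanosterol and its products, differed by -1.10, -1.37 and -1.30, each with no overlap. Dhcr7, which reduces the last double bond to give cholesterol, read 9.58, 10.10, 10.18, 9.95 and 9.71 against 10.68, 11.07 and 11.26. Its difference of -1.10 ± 0.10 had the smallest adjusted p of all probe sets, 2.23e-06. Ebp, Tm7sf2 and Nsdhl, which act on the sterol rings after lanosterol, fell by 0.49, 0.70 and 0.21. The call for Tm7sf2 was lost without any 1 of arrays 24, 27, 29, 44 and 46 (adjusted p up to 0.0847), and that for Nsdhl as deposited and without any 1 of arrays 21, 24, 25, 26, 28, 44, 45, 46 and 47. Sc5d and Fdps, at -0.23 and -0.27, did not pass (adjusted p = 0.0928 and 0.120).

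**Figure D1:**
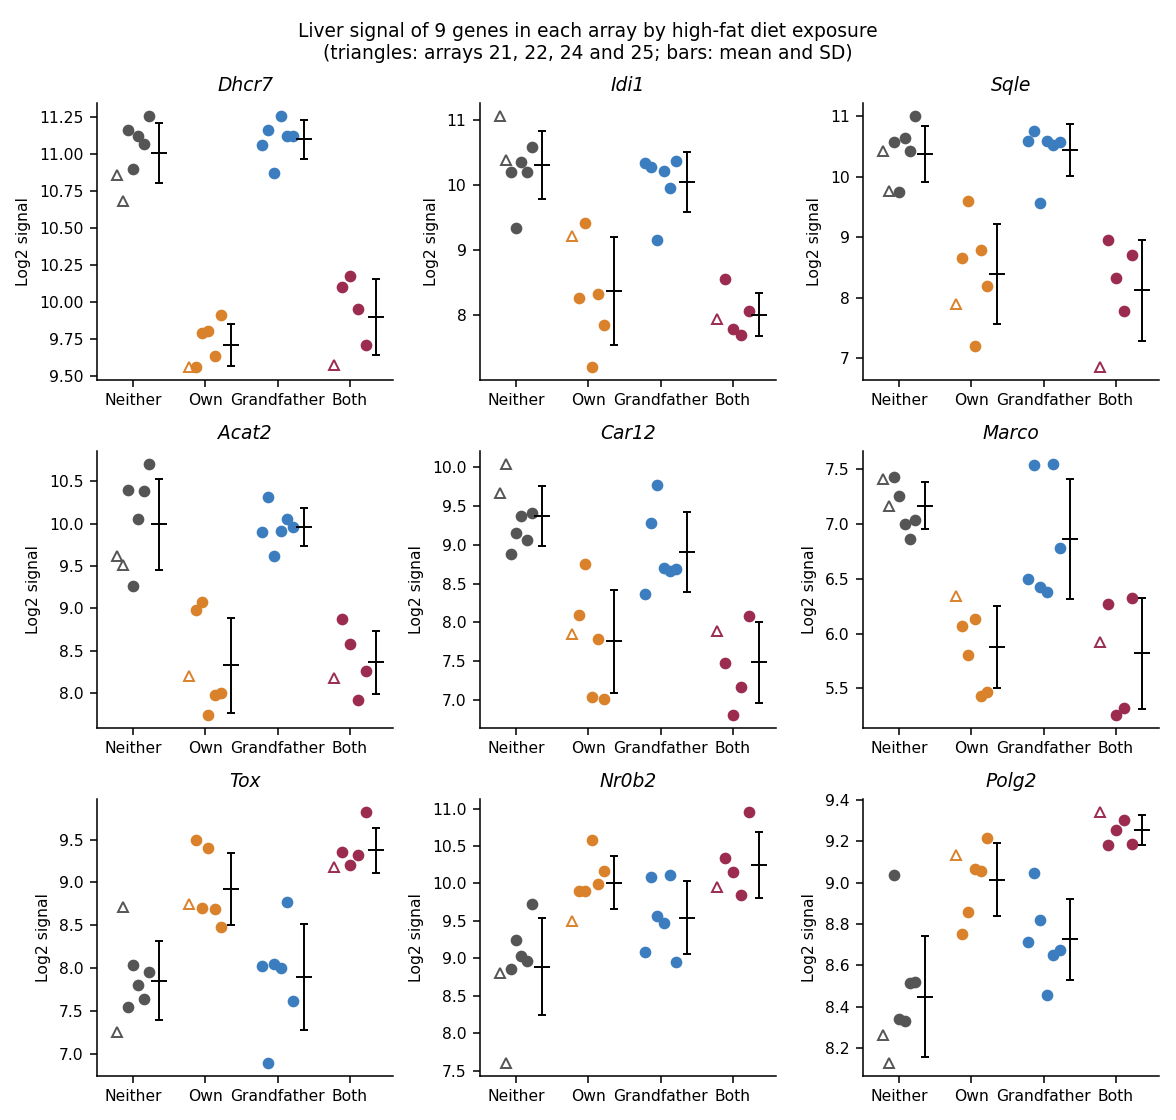
Log2 signal of 9 genes in each of the 24 arrays, by exposure group; the horizontal axis gives the group, triangles mark arrays 21, 22, 24 and 25, and bars show each group's mean and SD. The 5 doubly exposed livers lie below the 7 unexposed ones for Dhcr7, Idi1, Sqle, Acat2, Car12 and Marco, and above them for Tox, Nr0b2 and Polg2.

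Because these enzymes moved together, the start regions of the 4 with the smallest p and a RefSeq entry are shown (GRCr8, 250 bases before to 50 after the start, 5′ to 3′ on the gene's strand). They are Dhcr7 at chr1:208444184-208444483 on the + strand, Lss at chr20:12118181-12118480 on the - strand, Idi1 at chr17:66547475-66547774 on the - strand and Cyp51 at chr4:30991443-30991742 on the + strand. Motifs were searched on both strands, TCACNCCAC, a form of the sterol regulatory element, and CCAAT, the box bound by NF-Y, and matches are in capitals.
Dhcr7: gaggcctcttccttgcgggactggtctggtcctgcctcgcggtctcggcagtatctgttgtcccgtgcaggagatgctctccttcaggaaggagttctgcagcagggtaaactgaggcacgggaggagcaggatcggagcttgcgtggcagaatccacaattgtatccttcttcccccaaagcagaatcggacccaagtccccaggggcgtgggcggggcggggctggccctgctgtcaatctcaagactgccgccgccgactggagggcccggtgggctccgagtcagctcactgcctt
Lss: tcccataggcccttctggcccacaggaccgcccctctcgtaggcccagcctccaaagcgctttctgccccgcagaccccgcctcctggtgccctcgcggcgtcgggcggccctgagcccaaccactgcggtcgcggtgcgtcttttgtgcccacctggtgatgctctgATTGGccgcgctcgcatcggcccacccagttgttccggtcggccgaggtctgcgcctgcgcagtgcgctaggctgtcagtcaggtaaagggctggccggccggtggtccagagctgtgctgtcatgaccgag
Idi1: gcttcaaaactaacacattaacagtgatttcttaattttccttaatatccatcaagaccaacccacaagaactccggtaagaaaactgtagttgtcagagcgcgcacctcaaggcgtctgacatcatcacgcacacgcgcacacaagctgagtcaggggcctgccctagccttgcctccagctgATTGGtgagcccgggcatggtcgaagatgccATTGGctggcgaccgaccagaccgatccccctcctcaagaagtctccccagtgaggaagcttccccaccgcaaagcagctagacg
Cyp51: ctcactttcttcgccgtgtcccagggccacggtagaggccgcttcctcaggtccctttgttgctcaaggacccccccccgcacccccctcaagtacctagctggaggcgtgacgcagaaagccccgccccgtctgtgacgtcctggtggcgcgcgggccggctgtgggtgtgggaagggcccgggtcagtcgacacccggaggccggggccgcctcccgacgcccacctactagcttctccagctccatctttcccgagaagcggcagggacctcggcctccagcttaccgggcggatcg
The capitals in Lss and Idi1 are CCAAT boxes on the opposite strand, 1 in Lss beginning 82 bases before the start and 2 in Idi1 beginning 66 and 35 bases before it. CCAAT in either strand is held by 37.5% of the 33469 promoters of the table, and TCACNCCAC by 1.12%. None of the 4 windows holds TCACNCCAC, which says only that these letters are not in these windows. Among the other tested enzymes with an entry, Hsd17b7, Msmo1, Mvd, Ebp, Tm7sf2, Nsdhl, Sc5d and Fdps hold CCAAT and Acat2 does not. None of them holds TCACNCCAC.

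No departure from the sum was detected among the cholesterol enzymes, and the single exposure with the larger change was the female's own diet. The list's median was -1.05 in own diet only against unexposed, -0.03 in grandfather's diet only and -1.10 in the doubly exposed. These comparisons share the unexposed arrays, so their values are set side by side and not correlated. The median departure from the sum was 0.04 (-0.15 as deposited, where all genes had -0.10), with members from -0.33 to 0.34, and none of the 16 departures had an unadjusted p under 0.05. For Dhcr7 the single exposures gave -1.30 and 0.09, which sum to -1.21, and the departure was 0.10 with a 95% interval of -0.20 to 0.40. For Idi1 they gave -1.93 and -0.26, and the departure was -0.11 (-1.0 to 0.78), an interval that still allows a change of 2-fold in one direction.

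These enzymes also fell in a comparison that uses none of the 12 doubly exposed or unexposed arrays, although all groups share 1 estimate of the spread. Own diet only against grandfather's diet only gave 15 rises and 50 falls, 0.414% of probe sets, and 12 of the 16 cholesterol enzymes were among the falls, against 0.330% of all genes. Without array 38, 40, 41 or 42 there were 38 to 43 calls in place of 65. Dhcr7 was -1.39 there (adjusted p = 1.46e-08), Sqle -2.05 (0.00395) and Acat2 -1.63 (0.00162). Of the 168 falls in the doubly exposed livers 30 were among those 50, which is 17.9% of the first and 60.0% of the second, and of the 145 rises 8 were among the 15, 5.52% and 53.3%. No probe set was called in opposite directions by the pair of comparisons.

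Other sterol genes moved less. Of 15 tested genes of sterol sensing, uptake and export, 1 fell and 1 rose. Stard4, a carrier that moves sterol between membranes, read 7.54, 7.37, 7.34, 7.62 and 7.53 in the doubly exposed livers and 8.06, 8.29 and 8.60 at the lowest, median and highest of the unexposed. The groups did not overlap (difference -0.84 ± 0.11, adjusted p = 0.000257). Soat2, which esterifies cholesterol for storage and export, rose by 0.31 ± 0.07 (adjusted p = 0.0223), a call lost as deposited, without array 44 or 45, and without arrays 21, 22, 24 and 25 (adjusted p = 0.0579). Insig1 and Srebf2, at -0.43 and -0.29, did not pass.

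In fatty acid and triglyceride synthesis 2 of 19 tested genes fell, both enzymes that activate small acids for lipid synthesis. Aacs, which activates acetoacetate, differed by -1.71 ± 0.30 (adjusted p = 0.00280), and Acss2, which activates acetate, by -0.89 ± 0.17 (adjusted p = 0.00598). Of 21 genes that coat lipid droplets or take up fatty acids 2 fell and 1 rose. Cidea, a droplet protein, read 7.87, 7.93, 8.02, 8.05 and 8.51 against 8.51, 9.43 and 10.14, the highest doubly exposed liver meeting the lowest unexposed one (-1.25 ± 0.22, adjusted p = 0.00321). Pparg, a regulator of fat storage, differed by -0.83 (adjusted p = 0.0325) and Fabp2, a fatty acid carrier best known from intestine, by 1.10 (adjusted p = 0.0392). Both calls were lost without arrays 21, 22, 24 and 25, at adjusted p = 0.0646 and 0.0990. Pparg was also lost without any 1 of arrays 25, 29, 30, 44, 45, 46 and 47, and Fabp2 without any 1 of 25, 26, 27, 29, 44 and 45.

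**Figure D2:**
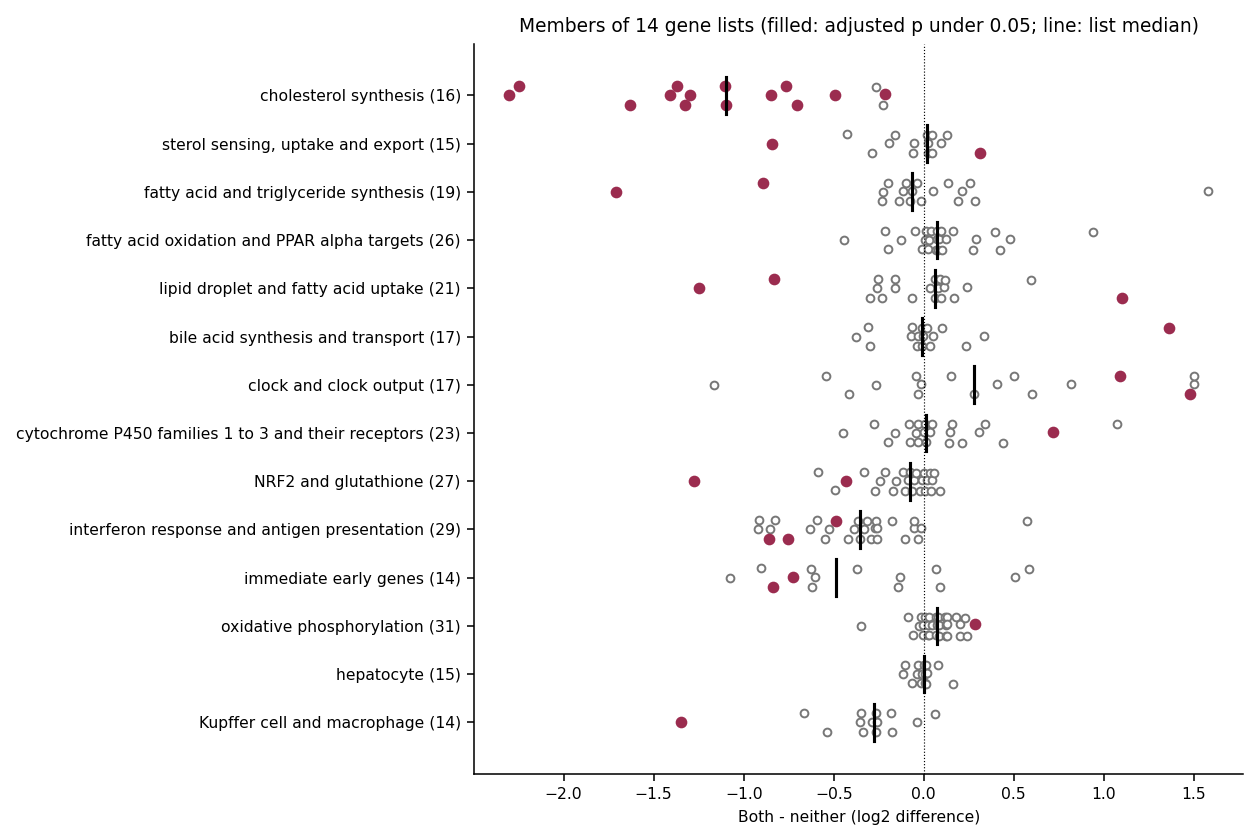
Log2 difference between doubly exposed and unexposed livers (horizontal axis) for each tested member of 14 gene lists (rows, with the number tested); filled points passed an adjusted p of 0.05 and vertical lines are list medians. The cholesterol synthesis row has a median of -1.10 and 14 filled points.

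Rises were spread over genes of different roles. Tox, a nuclear DNA-binding protein studied mostly in T cells, read 9.18, 9.35, 9.20, 9.32 and 9.83 in the doubly exposed livers and 7.26, 7.81 and 8.72 in the unexposed, a difference of 1.52 ± 0.25 without overlap (adjusted p = 0.00187). Nr0b2, the orphan receptor SHP that represses bile acid synthesis, read 9.95, 10.34, 10.15, 9.85 and 10.96 against 7.60, 8.97 and 9.72. It was higher in every doubly exposed liver (1.36 ± 0.27, adjusted p = 0.00906) and was the single call among 17 bile acid genes. Zfp354a, a zinc finger protein, was higher by 1.12 ± 0.20 (adjusted p = 0.00408), also without overlap. Polg2, the accessory subunit of the mitochondrial DNA polymerase, read 9.34, 9.18, 9.25, 9.30 and 9.19 against 8.13, 8.34 and 9.03, and its 0.81 ± 0.12 had the smallest adjusted p among the named rises, 0.000734. The doubly exposed livers were close together here, with an SD of 0.07 against 0.29.

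The 3 largest rises overlapped the controls. Some differences nearly as large were not called, among them Pnpla3, a lipid droplet hydrolase (1.58 ± 0.70, adjusted p = 0.245), and Hsd11b1, described below, among the falls. Spink1l, of a family of peptidase inhibitors, read 8.21, 9.37, 7.16, 7.84 and 8.01 against 5.48, 5.99 and 7.48, array 45 lying inside the unexposed range (1.92 ± 0.36, adjusted p = 0.00574). Kcnma1, a calcium-activated potassium channel, read 9.09, 8.68, 7.64, 8.73 and 8.90 against 5.71, 6.64 and 7.71 (1.85 ± 0.33, adjusted p = 0.00377), array 45 again lying inside the unexposed range. C16h10orf71 differed by 1.84 ± 0.42 (adjusted p = 0.0207), a call lost without array 44 or array 45, and unexposed array 30 read 8.11, above 3 of the 5 doubly exposed livers. Pgd, a pentose phosphate enzyme, and Ky, a peptidase known from muscle, differed by 1.22 and 1.09 (adjusted p = 0.0451 and 0.0161), and both calls were lost without arrays 21, 22, 24 and 25, at adjusted p = 0.192 and 0.0672. Pgd was lost without any 1 of 14 arrays in turn, and Ky without array 45.

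Of 17 tested clock and clock output genes 2 rose and none fell, with a median of 0.28. Per2, a repressor in the clock's loop, read 8.33, 9.62, 8.41, 7.47 and 9.49 against 6.83, 7.07 and 8.03 (1.48 ± 0.30, adjusted p = 0.00975). Array 46 lay inside the unexposed range. Hlf, a PAR bZIP factor driven by the clock, rose by 1.09 ± 0.23 (adjusted p = 0.0132), and the call was lost without array 44 (adjusted p = 0.0538). Per3 had a difference of 1.5 with an SE of 0.51 and did not pass. The labels give no hour of killing, so the part of time of day was not tested.

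Among the other large called falls, Car12, a membrane carbonic anhydrase, read 7.89, 7.48, 6.80, 7.16 and 8.08 against 8.89, 9.37 and 10.05, a difference of -1.89 ± 0.28 without overlap (adjusted p = 0.000805). Mab21l3 differed by -1.69 ± 0.26 with no overlap (adjusted p = 0.000915). Its mean in the doubly exposed livers was 5.92, near the testing cutoff of 5.72, and the difference ran from -2.01 to -1.28 across the alternative settings. Phlda2, an imprinted gene known as a brake on placental growth, read 6.07, 6.01, 5.52, 5.79 and 5.75 against 6.41, 6.72 and 6.93. Its difference of -0.85 ± 0.11 (adjusted p = 0.000252) was the single call among 11 imprinted genes tested, and the groups did not overlap. These signals, too, lay near the cutoff in the doubly exposed livers, and the difference ran from -1.07 to -0.59 across the alternative settings. Cpa1, a pancreatic digestive enzyme, had the largest difference, -2.46 ± 0.51 (adjusted p = 0.0114), from 9.07, 10.67, 10.46, 7.21 and 11.77 against 11.05, 12.26 and 13.22, so that array 47 overlapped. It was the single call among 8 acinar cell markers, whose list median was -0.10 with 3 of the 8 above 0. Their mean level, which includes Cpa1, ran from 6.31 to 6.73 in the doubly exposed and 6.59 to 7.05 in the unexposed livers. Without arrays 21, 22, 24 and 25 the adjusted p of Cpa1 was 0.0661.

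Marco, a scavenger receptor of liver macrophages, read 5.92, 6.27, 5.26, 5.32 and 6.33 in the doubly exposed livers and 6.86, 7.17 and 7.43 at the lowest, median and highest of the unexposed. The groups were apart and the difference was -1.35 ± 0.23 (adjusted p = 0.00196). The doubly exposed signals lay near the testing cutoff, a mean of 5.72, and the difference ran from -1.67 to -0.96 across the alternative settings. Marco was the single call among 14 Kupffer cell and macrophage markers, although 13 of the 14 were below 0 and the median was -0.28. Cd5l and Vsig4, further Kupffer cell genes, had -0.66 and -0.54 and did not pass (adjusted p = 0.0556 and 0.112). Averaged over the markers, the level ran from 8.67 to 9.19 in the doubly exposed and from 9.03 to 9.52 in the unexposed arrays. The part of macrophage number in the fall of Marco was not tested.

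Interferon and antigen presentation genes also lay low. Of 29 tested, 28 were below 0 with a median of -0.35, whereas 6653 of all 12744 genes were above 0. By the test 3 fell, against 145 of 12744. Of these 1, Psmb9, did so without overlap, against 113 of 12744 genes lower without overlap. Averaged over the list, the level ran from 7.92 to 8.56 in the doubly exposed and 8.38 to 8.89 in the unexposed arrays. The groups overlapped on this average, and genes read on the same arrays are not separate observations. Psmb9, an immunoproteasome subunit, differed by -0.49 ± 0.10 (adjusted p = 0.00780). Oasl2, of the antiviral oligoadenylate synthetase family, and Irf1, a transcription factor of the response, differed by -0.86 and -0.75 (adjusted p = 0.0204 and 0.0260), and both calls were lost without arrays 21, 22, 24 and 25, at 0.0525 and 0.0888. Oasl2 was also lost without array 45, and Irf1 without array 27, 44 or 47. Ifgga2l1, of a family of interferon-inducible GTPases, differed by -1.46 ± 0.32 (adjusted p = 0.0179), a call lost without array 44 or array 45. The single exposures gave list medians of -0.10 for own diet and -0.16 for grandfather's diet, both measured against the same unexposed livers. Of 10 lymphocyte markers none passed, and their median was -0.09.

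Over all probe sets, no departure from the sum passed the limma test (0.00% of 15687). Unadjusted, 1046 probe sets (6.67%) had p under 0.05, and the smallest adjusted p was 0.102, whereas the combined change had 2717 (17.3%). How much room this leaves can be read from the intervals. Across all tested probe sets, 13032 (83.1%) had a 95% interval of the departure inside 1.5-fold in both directions. Among the 313 called in the doubly exposed livers it was 226 (72.2%), with departures from -0.84 to 0.81, a median of 0.00 and a median half-width of 0.31. For the remaining called probe sets, a departure beyond 1.5-fold was not detectable or not excluded at this number of arrays. The margin of 1.5-fold is 0.585 in log2. The median size of the combined change was 0.47 among the called probe sets and 0.097 over all tested. An interval inside the margin can therefore still hold a departure as large as the combined change itself.

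**Figure D3:**
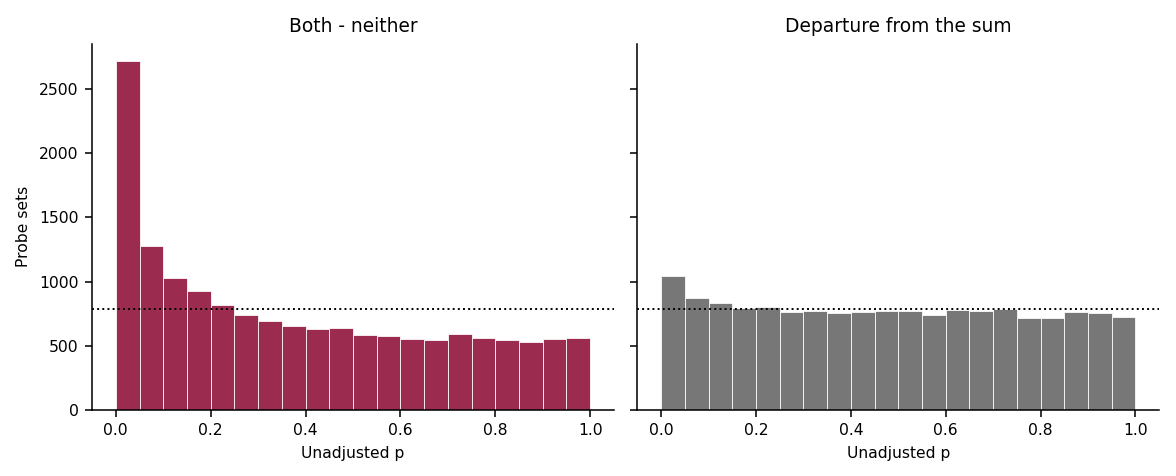
Number of probe sets (vertical axis) by unadjusted p in bins of 0.05 for the combined change (left) and the departure from the sum (right); dotted lines mark an even spread. The first bin holds 2717 probe sets on the left and 1046 on the right.

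Steps taken one exposure at a time gave different numbers of calls, although the single exposures had like numbers of small unadjusted p. Own diet only against unexposed gave 24 rises and 65 falls (0.567% of probe sets), with 1816 probe sets (11.6%) at an unadjusted p under 0.05. Grandfather's diet only had 1828 (11.7%) at that level and gave 1 fall (0.00637%), a probe set of Fam120a at -0.33 (adjusted p = 0.0117), and the gene's brighter probe set was not called. Adding the female's own diet to the grandfather's, doubly exposed against grandfather's diet only, gave 34 rises and 56 falls (0.574%). Adding the grandfather's diet to her own, doubly exposed against own diet only, gave 0 calls (0.00%) with limma, 868 probe sets having an unadjusted p under 0.05. These counts do not by themselves show that the exposures differ; the direct test is own diet only against grandfather's diet only, given above.

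**Figure D4:**
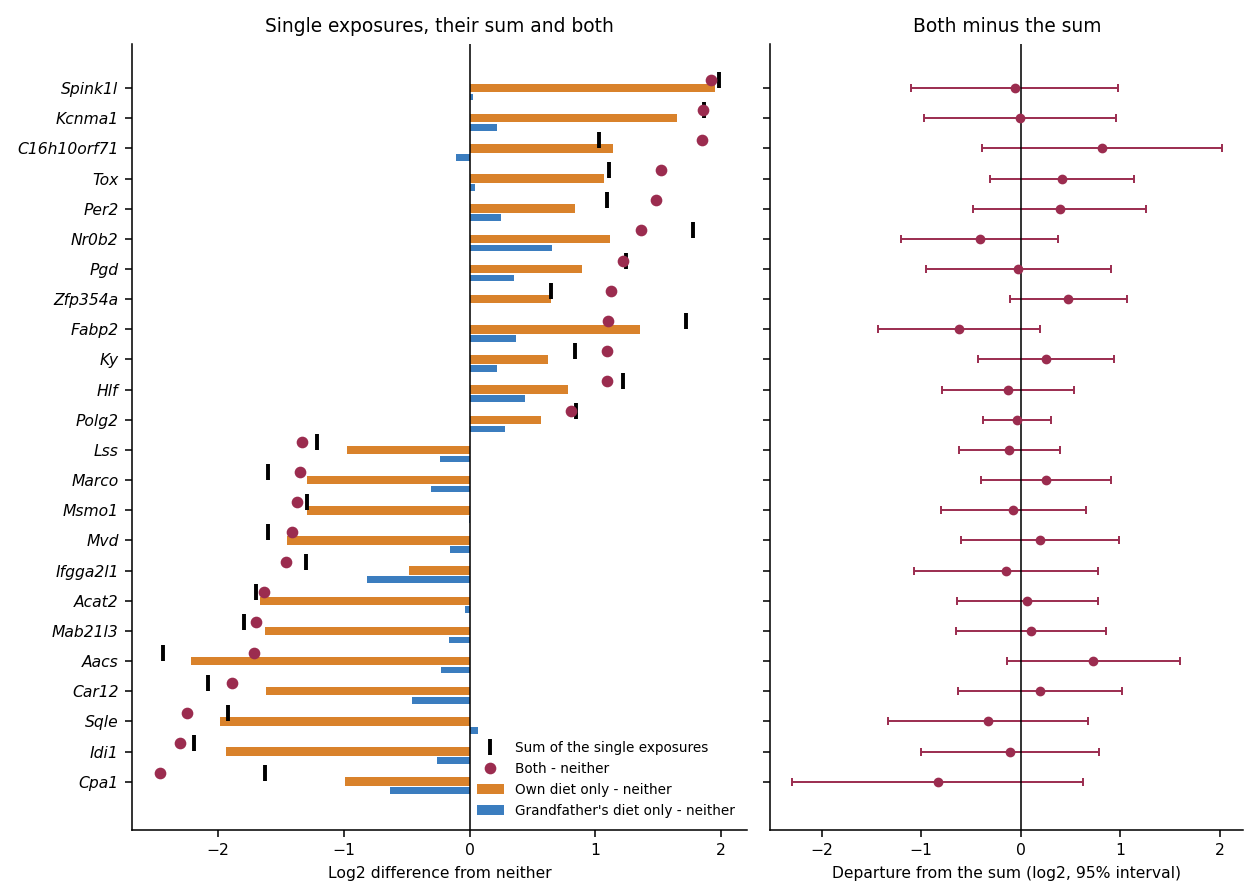
Left, log2 differences from the unexposed livers for the 12 largest called rises and 12 largest called falls: own diet only and grandfather's diet only (bars), their sum (tick) and the doubly exposed livers (point). Right, the departure of the point from the tick with its 95% interval, which contains 0 for each of the 24 genes.

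For these 24 genes, the largest among the called changes, every 95% interval of the departure contained 0. Spink1l had 1.95 and 0.03 from the single exposures and 1.92 from both, and Kcnma1 had 1.65 and 0.21 against 1.85. Acat2 had -1.66 and -0.03 against -1.63, and Polg2 0.57 and 0.28 against 0.81. Others lay further from their sum with wide intervals. Zfp354a had a sum of 0.65 and a combined change of 1.12 (departure 0.47, -0.11 to 1.06). Aacs had a sum of -2.44 and a combined change of -1.71 (departure 0.73, -0.14 to 1.59). Fabp2 had 1.72 and 1.10 (departure -0.62, -1.43 to 0.20).

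The departures with the smallest p did not pass and belong to genes whose combined change was small. Arpc1b, a subunit of the actin-nucleating ARP2/3 complex, read 10.26, 9.90, 10.05, 9.97 and 10.20 in the doubly exposed livers. The lowest, median and highest were 10.11, 10.31 and 10.47 in the unexposed, 9.75, 9.84 and 10.17 in own diet only, and 9.86, 9.89 and 9.98 in grandfather's diet only. Both single exposures were lower than the unexposed, by 0.42 and 0.40 at the mean, and the doubly exposed livers lay between. The departure was 0.60 (0.38 to 0.81, adjusted p = 0.102). It passed when array 21, 31 or 44 was left out (adjusted p = 0.0442, 0.00608 and 0.0432). Stx6, a trafficking protein, and Romo1, a small mitochondrial membrane protein, had departures of 0.42 and 0.49, and Txndc17, Rps24 and Fam181b of -0.38, -0.39 and -0.39, with adjusted p from 0.372 to 0.510.

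In fat oxidation the combined change lay below the sum at the list's median, though no departure passed. Of 26 tested PPAR alpha and oxidation genes, none was called in the doubly exposed livers, and 6 departures had an unadjusted p under 0.05, against 705 of 12744 genes. The list's median was 0.07 in the doubly exposed livers (-0.05 as deposited) and 0.27 for the sum of the single exposures, and the median departure was -0.19, against -0.01 over all genes (-0.34 against -0.10 as deposited). The departure was below 0 in 20 of the 26, against 6784 of 12744 genes. The 26 were read on the same arrays, so they are not separate observations. Vnn1, a pantetheinase driven by PPAR alpha, read 7.42, 9.30, 9.15, 9.07 and 8.59 in the doubly exposed livers, and 6.82, 7.77 and 8.59 at the lowest, median and highest of the unexposed. In own diet only it read 9.20, 9.27 and 10.05, and in grandfather's diet only 7.54, 8.65 and 8.94. Array 24 was the lowest of the doubly exposed. The single exposures gave 1.63 and 0.74 and the combination 0.94, a departure of -1.43 with an interval of -2.35 to -0.50 (adjusted p = 0.510). Eci1 and Decr1, auxiliary enzymes of unsaturated fat oxidation, had departures of -0.89 (-1.52 to -0.25) and -0.60 (-1.04 to -0.16), neither past the threshold.

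In the macrophage markers and in fatty acid and triglyceride synthesis the departures lay mostly above 0. For the macrophage markers, the single exposures gave list medians of -0.42 and -0.18, the sum of single exposures had a median of -0.61, and the doubly exposed livers -0.28. All 14 departures were above 0, from 0.12 to 0.55, with a median of 0.32 against -0.01 over all genes. As deposited 12 of 14 were above 0, with a median of 0.19 against -0.10 over all genes. In the main fit 3 of the 14 had an unadjusted p under 0.05 and none passed. C1qb, a complement subunit made by macrophages, had -0.49 and -0.41 from the single exposures and -0.35 from both, a departure of 0.55 (0.12 to 0.98). These markers come from the same cells and arrays, so they are not separate observations, and the unexposed arrays enter each of these values.

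The fatty acid and triglyceride synthesis list had a median departure of 0.33, with 17 of its 19 members above 0 (from -0.07 to 1.48). Its members, too, were read on the same arrays and are not separate observations. The medians were -0.28 for the sum of the single exposures and -0.06 for the doubly exposed livers. As deposited the median departure was 0.15, against -0.10 over all genes, with 12 of 19 above 0. Without arrays 21, 22, 24 and 25 it was 0.22 with 18 of 19 above 0. Dgat2, which makes triglyceride, was the 1 member with an unadjusted p under 0.05. Its departure of 0.16 (0.01 to 0.32, adjusted p = 0.717) was -0.00617 as deposited, where the median over all genes was -0.10. Pnpla3 had 0.77 and -0.67 from the single exposures and 1.58 from both, a departure of 1.48 that did not pass.

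Hsd11b1, the enzyme that regenerates active glucocorticoid, read 7.41, 6.30, 5.84, 5.75 and 5.75 in the doubly exposed livers and 5.89, 8.29 and 9.34 at the lowest, median and highest of the unexposed, array 30 being the lowest. The groups overlapped, and the difference of -1.86 ± 0.50 did not pass (adjusted p = 0.0520). It passed as deposited (0.0352) and with arrays 21, 22, 24 and 25 as a block (0.0323). The single exposures gave -1.94 for own diet and 0.28 for grandfather's diet, and the departure was -0.21 (-1.66 to 1.25).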

How the data were processed

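The deposited table holds 1 linear intensity per probe set and array for 24 arrays; per the submitters' processing notes it was made with Affymetrix Expression Console and PLIER, and no source used here says whether the authors normalized between arrays. The analysis computed log2(intensity + 16) from the deposited intensity values and quantile normalized all arrays, because array medians differed. The lowest 25% of 20917 probe sets by mean (5230) were left out, a cutoff at a mean log2 signal of 5.72. limma 3.58.1 in R 4.3.3 fitted 4 group means with eBayes and an intensity trend; the departure is both minus own diet only minus grandfather's diet only plus neither. Of the probe sets, 18197 name 1 gene, 960 several and 1760 none, and 18052 single names matched RefSeq's table (GRCr8). Gene lists (34) used 1 probe set per gene, the brightest. Named genes were the 12 largest called changes in each direction, the 3 smallest p per direction of the departure, and up to 4 members per list by p for the combined change and 2 for the departure; other members of the cholesterol list were named for completeness. Members and lists were chosen with earlier results of these data known. Alternatives covered scaling, filter, offset, eBayes settings, array weights, arrays 21, 22, 24 and 25, and each array in turn. The fits were also run on simulated data, with independent noise and changes added to the doubly exposed group only. That setting holds no kinship and no arrays that stand apart, so it cannot vouch for the calls here. The number of arrays limits the precision.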

Additional observations from a re-analysis of the deposited data

Results flagged for a closer look

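In 4 of the 48 sets examined (24 genes in the doubly exposed and the unexposed livers), 1 array lay far from the rest of its group; chance marks about 1 in 20. Kcnma1 read 7.64 in doubly exposed array 45 against 8.68 to 9.09 in the other arrays of that group. Tox read 9.83 in doubly exposed array 47 against 9.18 to 9.35. In unexposed array 30, C16h10orf71 read 8.11 against 5.19 to 6.24 and Per2 read 8.03 against 6.83 to 7.28.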

How the results depend on the processing

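Of the 49 named genes called in the doubly exposed against the unexposed livers, 27 stayed called under each alternative that could be fitted and none changed sign. No paired analysis was possible because no array number occurs in more than 1 group. The combined change gave 313 calls, 191 with arrays centred on the median, 636 with arrays 21, 22, 24 and 25 as a block, 117 with only the compared groups fitted, and 146 (without array 44) to 453 (without array 24) when 1 array was left out; without array 45 it was 153 and without unexposed array 27 it was 203. The departure gave 0 calls under each scaling, filter and weighting and 0 to 1 without 1 array. Own diet only gave 89, 50 as deposited, 153 with array weights, 163 with the block and 60 to 116 without 1 array. Grandfather's diet only gave 1, 0 as deposited, centred or with 1 probe set per gene, 2 with the lowest 50% left out or without the 4 arrays, 3 with the block, 6 with array weights, and 0 to 2 without 1 array. Own against grandfather's diet gave 65, 172 with array weights and 38 to 75 without 1 array. Cholesterol enzymes that fell numbered 12 to 14 throughout; that count, and the lists' median departures under other settings, were added after seeing the data. The departure of Dgat2 was 0.16 and turned to -0.00617 as deposited, where the median over all genes was -0.10. Calls for Pgd, Por, Herpud1, Nsdhl, Fabp2, Pparg, Orm1 and Uqcrfs1 were lost under 10 to 25 of up to 37 alternatives. The fit that uses only the compared groups has fewer arrays behind its spread.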

Other observations

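Detoxification genes gave few calls. Of 27 NRF2 and glutathione genes tested, Gsta3 and Gstm2, which conjugate glutathione to toxic compounds, fell by 1.28 and 0.43 (adjusted p = 0.0283 and 0.00957), and both calls were lost without arrays 21, 22, 24 and 25, and Gsta3 also without any 1 of 21, 27, 29, 44, 45 and 47. Por, which feeds electrons to the cytochromes P450, was the single rise among 23 P450 genes and receptors (0.72, adjusted p = 0.0479), also lost without them (0.119) and without any 1 of 17 arrays. Ier3 and Ier2, early response genes, fell by 0.84 and 0.72 among 14 tested (adjusted p = 0.0204 and 0.0236), with a list median of -0.49; without those arrays the adjusted p was 0.0900 and 0.0580, and the calls were also lost without array 46 (Ier3) and array 24 or 44 (Ier2). Orm1, an acute phase protein, was the single fall among 21 genes (-0.85, adjusted p = 0.0383), lost without any 1 of arrays 21, 25, 27, 29, 45 and 46. Herpud1 of the endoplasmic reticulum stress list (0.59, adjusted p = 0.0476, 1 of 21) and Uqcrfs1, a complex III subunit (0.28, adjusted p = 0.0337, 1 of 31), rose; the first was lost without any 1 of 16 arrays and the second without any 1 of arrays 25, 28, 29, 44, 45, 46 and 47.

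Lists with 0 calls were lipoproteins (10 tested, median 0.01), glucose and insulin (19, 0.02), glucocorticoid action (13, -0.02), growth hormone and IGF (16, -0.05), cell cycle (22, 0.06), DNA methylation with histone modification and methyl donors (21, 0.03), urea cycle and amino acids (20, 0.01) and extracellular matrix (20, 0.00), on a scale where the median of all genes was 0.01 and, as deposited, -0.09. So were the marker lists of neutrophils (5, -0.17), endothelial cells (9, 0.02), stellate cells (7, 0.00), bile duct cells (6, -0.05), erythroid cells (6, 0.19) and mesothelial and smooth muscle cells (7, -0.05). Some of these lists gave calls under other settings. Glucocorticoid action had 2 falls as deposited, 2 falls with arrays 21, 22, 24 and 25 as a block and 1 rise without them. Urea cycle and amino acids had 1 rise without those arrays. The list of DNA methylation with histone modification and methyl donors had 1 rise and 1 fall with the block. Bile duct cells had 1 fall as deposited and 1 with the block. Fat oxidation, also with 0 calls, had 1 rise without those arrays. The lipoprotein and hepatocyte lists each had a median of 0.05 as deposited and 0.15 with arrays centred on the median. All genes had -0.09 and 0.01 there. Quantile normalization gives the brightest ranks the same values in every array, and Apoe read 13.31 in all 5 doubly exposed arrays. A change in such bright genes could be hidden by the scaling. In the growth hormone list Igfbp3, a carrier of IGF1, had -0.52 and -0.34 from the single exposures and -0.35 from both, a departure of 0.51 (0.19 to 0.84) that did not pass (adjusted p = 0.510).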
